A study of Mus musculus with 34 samples.

Results

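The regions described here are 168 of the 240995 autosomal regions of the shared list, 0.0697%, that were chosen by measured read counts. A region was taken where the libraries of the line D2 5-5 held 8 reads or fewer in all and those of the line B6 5-1 held 60 or more, with both histone marks summed. The reverse choice, 8 or fewer in B6 5-1 and 60 or more in D2 5-5, found 0 regions. The counts of those 2 lines chose the regions and are given as a description, without a test.

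Inbred mouse strains differ in single bases and also by deletions, insertions and expanded gene families. Endogenous retroviruses and other transposable elements account for many of these insertions, and a copy present in the strain of the reference genome can be missing in another strain. Reads from a strain can be counted in a region of the reference genome only where that strain carries matching DNA and where the chromatin there is precipitated. H3K9me3, trimethylated lysine of histone H3, covers retroviral elements and other heterochromatin in embryonic stem cells. H3K27ac, an acetylated lysine of the same histone, marks active promoters and enhancers.

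Chromatin immunoprecipitation with sequencing was carried out for both marks in mouse embryonic stem cells. C57BL/6J (B6) and DBA/2J (D2) are the parental strains. B6-13D2, strain B6.D2-(rs30079041-rs51756099)/Bakr with the laboratory name QJ, has a B6 background and a D2 segment of chromosome 13. D2-13B6, laboratory name XE, has a D2 background and a B6 segment of chromosome 13, whose end marker is rs51756099 in the series text and rs13469455 in the sample labels. The positions of these markers were not used here.

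In one set, the separate lines, each library came from its own line, with B6 4-1, B6 4-4 and B6 5-1 against D2 2-9, D2 5-5 and D2 203. In the other set, the repeated libraries, the libraries were technical replicates of 1 line per genotype (B6 5-1, D2 5-5, the B6-13D2 line QJ 6-1 and the D2-13B6 line XE 2-4), so their spread is technical. All lines were grown in serum with LIF, PD0325901 and CHIR99021. No input library was used here, so missing DNA, DNA without the mark and reads that did not align cannot be told apart from these counts.

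Sums over repeated libraries came from 6 libraries of B6 5-1, 5 of D2 5-5, 5 of B6-13D2 and 6 of D2-13B6. Library totals in the shared list were 1487862 to 2559262 reads for H3K9me3 and 8735674 to 11543469 for H3K27ac, and 15444270 to 18272793 in the separate list used for H3K27ac of the separate lines. H3K27ac within 1 kb of the starts of 20 embryonic stem cell genes had medians of 83.1 to 99.98 CPM (the count scaled to equal library totals) over the 4 genotypes, against 1.74 to 5.20 for the lists of fibroblast, extraembryonic endoderm, neural and mesoderm genes. Replicate 1 of D2-13B6 stood apart from the other replicates of its line in both marks, with a chi-square per degree of freedom of 2.46 and 2.47 for H3K9me3 and of 2.81 and 2.79 for H3K27ac. For H3K27ac, replicates 1 and 3 of B6-13D2 and replicates 2 and 3 of D2-13B6 agreed within sampling noise (0.906 and 0.905 per degree of freedom), so each pair was taken as 1 sample.

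The sequences below are printed because the results turn on these 7 regions. They were read from the RefSeq sequence of GRCm38.p6 (mm10), plus strand, over the middle 240 bases of the region, or over all 239 bases of the region in Myrfl. Capitals are bases outside annotated repeats and lower case marks soft-masked repeat sequence, as in the reference file.
The region near Zfp759 on chromosome 13 with the opposite order in the congenic lines, chr13:67155086-67155325: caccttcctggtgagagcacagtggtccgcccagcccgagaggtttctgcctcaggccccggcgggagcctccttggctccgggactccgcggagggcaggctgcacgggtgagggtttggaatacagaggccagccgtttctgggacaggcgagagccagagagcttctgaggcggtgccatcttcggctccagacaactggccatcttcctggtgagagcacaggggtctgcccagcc
The region in an intron of Myrfl with the opposite order in the congenic lines, chr10:116794510-116794748: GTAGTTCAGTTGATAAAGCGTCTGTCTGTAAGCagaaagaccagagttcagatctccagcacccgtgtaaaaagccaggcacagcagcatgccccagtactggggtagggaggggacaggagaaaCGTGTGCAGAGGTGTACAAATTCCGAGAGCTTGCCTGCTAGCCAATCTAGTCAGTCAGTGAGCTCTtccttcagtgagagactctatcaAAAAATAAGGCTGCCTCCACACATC
The region with the most B6 5-1 reads, chr11:14080800-14081039: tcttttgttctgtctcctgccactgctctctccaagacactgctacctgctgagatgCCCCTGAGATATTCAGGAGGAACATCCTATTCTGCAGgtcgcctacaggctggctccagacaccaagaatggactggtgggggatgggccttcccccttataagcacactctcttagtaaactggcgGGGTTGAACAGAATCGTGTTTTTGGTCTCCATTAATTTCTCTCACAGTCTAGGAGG
A region 62.3 kb from Nlrp1b with few reads in every D2 library, chr11:71293556-71293795: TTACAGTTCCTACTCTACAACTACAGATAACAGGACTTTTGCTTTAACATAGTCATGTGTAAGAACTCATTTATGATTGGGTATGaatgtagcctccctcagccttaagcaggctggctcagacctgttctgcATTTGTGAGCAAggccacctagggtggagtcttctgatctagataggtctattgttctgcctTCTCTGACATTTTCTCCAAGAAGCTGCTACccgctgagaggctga
A region in an intron of Skint4 with few reads in every D2 library, chr4:112156415-112156654: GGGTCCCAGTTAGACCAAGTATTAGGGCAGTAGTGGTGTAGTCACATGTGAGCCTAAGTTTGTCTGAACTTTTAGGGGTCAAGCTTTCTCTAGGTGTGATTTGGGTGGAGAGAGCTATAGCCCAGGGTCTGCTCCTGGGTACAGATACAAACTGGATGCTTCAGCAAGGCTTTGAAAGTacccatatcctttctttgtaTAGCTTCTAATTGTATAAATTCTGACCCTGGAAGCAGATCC
A region 45.6 kb from Vma21-ps with few reads in every D2 library, chr4:52543280-52543519: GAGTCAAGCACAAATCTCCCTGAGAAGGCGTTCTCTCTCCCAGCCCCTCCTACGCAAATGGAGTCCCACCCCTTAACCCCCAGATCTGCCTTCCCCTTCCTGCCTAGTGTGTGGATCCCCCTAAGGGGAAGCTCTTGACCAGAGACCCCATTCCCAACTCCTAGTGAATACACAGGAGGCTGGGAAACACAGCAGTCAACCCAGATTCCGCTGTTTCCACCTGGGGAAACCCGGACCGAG
A region 216 kb from Rarb with reads in the separate D2 lines, chr14:17034975-17035214: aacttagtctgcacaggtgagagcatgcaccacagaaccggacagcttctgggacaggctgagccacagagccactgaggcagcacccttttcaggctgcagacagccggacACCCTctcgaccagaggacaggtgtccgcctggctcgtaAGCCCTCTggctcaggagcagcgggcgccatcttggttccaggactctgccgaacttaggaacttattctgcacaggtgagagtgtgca

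In these windows, the share of capitals ran from 0% in the region near Zfp759 to 100% in the region near Vma21-ps. Over all 168 regions the median soft-masked share was 74.7%, against 15.5% over all autosomal regions. Of the 168, 41 (24.4%) were at least 90% soft-masked, against 4.14% of all regions, and 11 were at most 10% soft-masked, a state that 35.5% of all regions had. A median of 21.4% of the 50-mers of a selected region occurred more than once in the autosomes of the reference, against 0% in every 100th region of the list (n = 2410). More than 50% of the 50-mers were repeated in 28 of the 168 regions (16.7%) and in 4.36% of those sampled. GC content was nearly the same, with medians of 47.8% and 48.2%.

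Some of the regions shared sequence. A total of 107 of the 168 (63.7%) shared a stretch of 30 bases, on either strand, with another selected region, and 7 linked groups held 5 or more regions. The same share was not computed for other regions, and 1 of these groups is linked by a simple repeat of alternating A and C that 3.55% of all regions held. The stretches most often shared in 3 of these groups are shown to make that relation visible.
In 15 regions, of a group of 16 on 11 chromosomes: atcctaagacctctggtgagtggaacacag
In 7 regions, of a group of 16 that includes the region near Zfp759: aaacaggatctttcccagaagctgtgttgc
In 6 regions, of a group of 9 on 8 chromosomes: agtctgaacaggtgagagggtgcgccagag
These stretches are not limited to the selected regions: 0.422%, 0.136% and 0.562% of all autosomal regions held them. In the first of these groups the median summed count was 81.5 reads in B6 5-1, 6 in D2 5-5, 62.5 in B6-13D2 and 9.5 in D2-13B6.

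The selected regions lay away from genes. By GENCODE release M21, 67.9% of them were intergenic, against 40.0% of all autosomal regions, and 43 were intronic (25.6% against 39.6%). A coding exon was touched by 1 region, against 12.1% of all regions, an untranslated region by 0, against 3.78%, and an exon of a non-coding transcript by 10 (5.95% against 4.50%). The median distance to the nearest start of a protein-coding gene was 89225 bp, against 27134 bp for all regions, and 1 region lay within 1 kb of such a start, against 8.47%.

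The region that touched a coding exon was chr12:44387828-44388615 in Nrcam, a neuronal cell adhesion gene, with 63 reads in B6 5-1, 6 in D2 5-5, 105 in B6-13D2 and 21 in D2-13B6. Its H3K27ac counts in the region of the separate list were 115, 80 and 92 in the B6 lines and 14, 15 and 24 in the D2 lines, and without B6 5-1 and D2 5-5 the log2 difference was -2.33 ± 0.26 (SE, adjusted p = 1.8e-14, edgeR). H3K9me3 in those D2 lines was 8, 11 and 6 reads, against 0, 5 and 4 in the B6 lines, so reads were present there in D2. The region within 1 kb of a start was chr11:26467206-26467959, 376 bp from the start of Fancl, a gene of the Fanconi anaemia DNA repair pathway, and lay in an intron. It had 124 reads in B6 5-1 and 7 in D2 5-5, and its separate H3K9me3 libraries held 21, 21 and 18 reads in B6 and 11, 13 and 5 in D2 (log2 difference without B6 5-1 and D2 5-5 -1.87 ± 0.49 SE, adjusted p = 0.0087, edgeR). That call was lost with library totals (adjusted p = 0.20), with DESeq2 (0.15) and without B6 4-1 (0.13) or D2 203 (0.33). Between the congenic lines, H3K9me3 was 39 and 36 reads in B6-13D2 and 1, 3 and 3 in D2-13B6 (log2 difference -3.96 ± 0.47 SE, adjusted p = 3.4e-11, edgeR).

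The counts that chose the regions ran from 60 to 1018 in B6 5-1 (median 80.5) and from 0 to 8 in D2 5-5 (median 6). All autosomal regions had medians of 50 and 38 reads in these lines, and 6725 of them (2.79%) had 8 reads or fewer in D2 5-5. In D2 5-5, 1 region had 0 reads, while 67 regions had 7 or 8, so most of the regions held a few D2 reads. Just inside the D2 limit stood chr4:112159399-112161519 with 738 B6 and 8 D2 reads, chr4:112092129-112093192 with 636 and 8, and chr7:113650385-113651335 with 387 and 8. Just outside it stood chr7:29883413-29884065 with 295 B6 and 9 D2 reads, chr8:31067577-31068558 with 264 and 9, and chr5:104330710-104331997 with 224 and 9. At the B6 limit, 3 regions with 60 B6 reads, chr14:89897103-89897607, chr2:142746414-142746956 and chr4:122029265-122029722, were inside with 4, 5 and 5 D2 reads. The nearest outside were chr8:37845524-37845805 and chr10:13633924-13634408 with 59 B6 reads and chr4:113605822-113606297 with 58, and their D2 reads were 3, 7 and 0.

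The region with the most reads was chr11:14080184-14081655, in an intron of the long non-coding RNA gene 4930554G24Rik. Its H3K27ac counts were 309, 353 and 327 in B6 5-1 and 0, 1 and 0 in D2 5-5. Next came chr4:112159399-112161519 and chr4:112092129-112093192, both in introns of Skint4, a gene of a family expressed in skin and thymus that bears on the development of skin γδ T cells. The fourth was chr11:71293006-71294345 with 452 B6 reads, near Nlrp1b, an inflammasome sensor gene. The fifth was chr7:113650385-113651335, 78.9 kb from Far1, a gene of fatty alcohol synthesis. By H3K9me3 alone, the order began with chr4:112159399-112161519 (242 reads in B6 5-1), and chr8:39152829-39153337 in Tusc3 (127 reads), chr4:122058878-122059900 (124 reads), chr4:112092129-112093192 (106 reads) and chr4:112156019-112157050 (103 reads) followed. H3K9me3 CPM was more than 4 times the H3K27ac CPM in B6 5-1 at 81 of the 168 regions, and the reverse held at 9, against 25.8% and 8.86% of all regions.

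The congenic lines were not used in the choice, so they show whether the counts went with the background. B6-13D2 had more reads than D2-13B6 at 166 of the 168 regions, which was so at 45.2% of all autosomal regions. Summed counts of B6-13D2 ran from 3 to 907 with a median of 69.5, and those of D2-13B6 from 1 to 87 with a median of 9. D2-13B6 had 8 reads or fewer at 79 regions (47.0%), against 1.07% of all regions. B6-13D2 had 60 or more at 104 regions (61.9%), against 40.4%. Without replicate 1, 2 or 3 of D2-13B6, its sum was 8 or less at 120, 126 and 125 regions, against 4.05%, 4.85% and 5.15% of all regions. Without replicate 1, 2 or 3 of B6-13D2, its sum was 60 or more at 51 (30.4%), 46 (27.4%) and 76 regions (45.2%), against 27.8%, 27.3% and 31.6%, so without replicate 1 or 2 the share at this raw limit was near that of all regions. The limits are raw sums: D2-13B6 had 1 more library than D2 5-5, and 94 regions were at or under a limit scaled to depth.

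**Figure D1:**
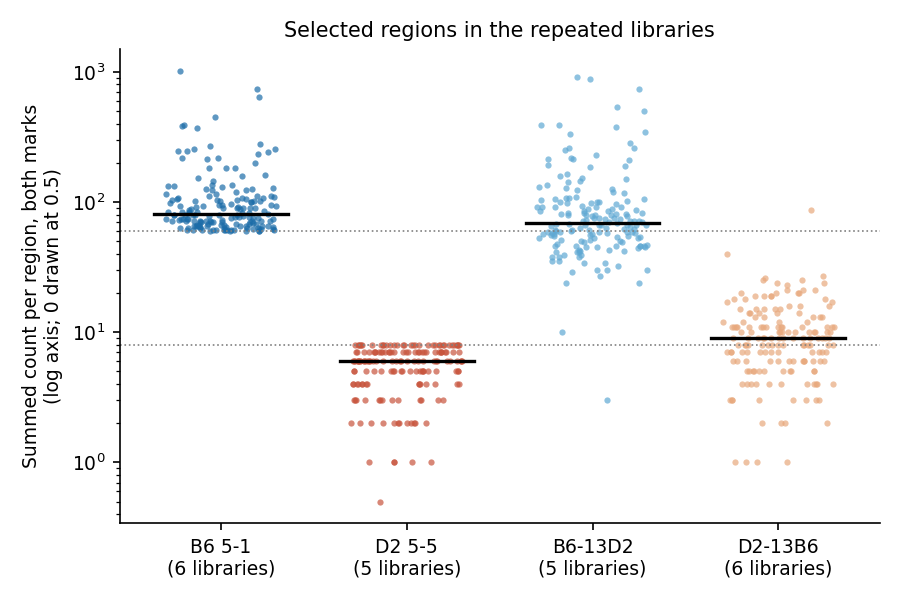
Summed read count of each of the 168 selected regions (log axis, both marks) in the repeated libraries of B6 5-1, D2 5-5, B6-13D2 and D2-13B6. Points are regions, bars are medians (80.5, 6, 69.5 and 9) and dotted lines are the limits of 8 and 60. B6 5-1 and D2 5-5 are separated by the choice of regions, and the congenic lines were not used in it.

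Library by library, every B6-13D2 library lay above every D2-13B6 library, in CPM, at 141 of 168 regions for H3K9me3, against 12.4% of all autosomal regions, and at 133 for H3K27ac, against 19.3%. In edgeR's quasi-likelihood test with Benjamini-Hochberg adjustment over all regions, with a threshold of 0.05, H3K9me3 was lower in D2-13B6 at 119 of the 168 regions and higher at 1, while 3.94% of all tested regions were lower. The median log2 difference of the 168 was -2.96, against 0.12 over all regions. For H3K27ac, 120 regions were lower and 2 higher, while 9.33% of all tested regions were lower, and the median log2 difference was -3.26, against -0.06. Without replicate 1 of D2-13B6, 116 regions were lower for H3K9me3. For H3K27ac that left 1 sample of D2-13B6, and the median log2 difference of the 168 was -3.46. DESeq2's Wald test gave 55 and 62 among the 58 and 66 regions for which it gave an adjusted p, and gave none for the others. Over all regions, H3K9me3 was lower at 9783 and higher at 4159, and with library totals in place of TMM scaling at 7678 and 6227, with a median log2 difference of 0.28.

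**Figure D2:**
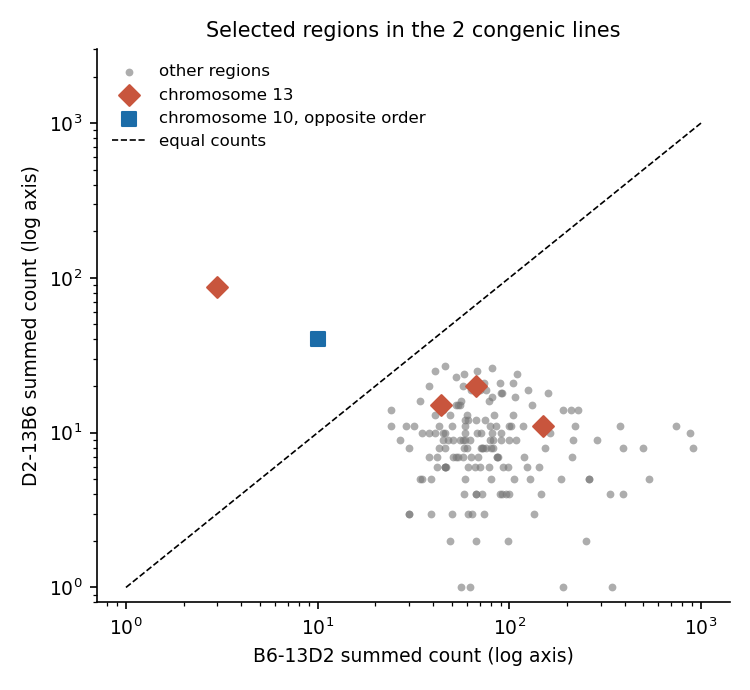
Summed read count of each selected region in D2-13B6 (vertical, log axis) against B6-13D2 (horizontal, log axis), both marks and all repeated libraries. Diamonds are the 4 regions of chromosome 13 and the square is the region of chromosome 10 with more reads in D2-13B6. The other regions lie below the dashed line of equal counts, and 1 diamond stands above it at 3 and 87 reads.

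Of the 168 regions, 4 lay on chromosome 13, and 1 of these had more reads in D2-13B6 than in B6-13D2, against the order of the backgrounds. Whether it lies inside the exchanged segment was not checked, since the marker positions were not used. This region, chr13:67154977-67155434, is 458 bp long, intergenic, 13.2 kb from Zfp759, a gene of the zinc finger family, and 80.6% soft-masked. Its H3K9me3 counts were 25, 25 and 26 in B6 5-1, 0 and 1 in D2 5-5, 1 and 2 in B6-13D2 and 25, 23 and 20 in D2-13B6. Its H3K27ac counts were 17, 24 and 18 in B6 5-1, 0, 1 and 0 in D2 5-5, 0 in each of the 3 libraries of B6-13D2 and 9, 7 and 3 in D2-13B6. B6 5-1 and D2 5-5 were set apart by the choice of regions, and every D2-13B6 library was above every B6-13D2 library in either mark. Between the congenic lines both marks passed the test in this direction (adjusted p = 1.4e-06 for H3K9me3 and 0.00055 for H3K27ac, edgeR), and DESeq2 gave no adjusted p for H3K27ac here. The B6-13D2 sums of 3 and 0 reads are at or under the floor of 3 counts, so no fold is given. In the separate H3K9me3 libraries the region had 26, 31 and 17 reads in the B6 lines and 5, 4 and 4 in the D2 lines, and without B6 5-1 and D2 5-5 the log2 difference was -3.11 ± 0.53 (SE, adjusted p = 1.6e-06, edgeR), with an adjusted p of 0.061 with library totals.

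The other regions of chromosome 13 went with the background. The region chr13:77798776-77799773 in an intron of Fam172a had 242 reads in B6 5-1, 7 in D2 5-5, 149 in B6-13D2 and 11 in D2-13B6. H3K9me3 there was 23 and 22 in B6-13D2 and 2, 3 and 2 in D2-13B6 (log2 difference -3.23 ± 0.51 SE, adjusted p = 7.4e-07, edgeR). The region chr13:84811398-84811836, wholly soft-masked (100%), had 67 reads in B6-13D2 and 20 in D2-13B6. The region chr13:96993228-96993711, 28.2 kb from 1700029F12Rik and 6.0% soft-masked, had 44 and 15. Its H3K27ac counts were 11, 12 and 13 in B6-13D2 and 1, 2 and 2 in D2-13B6 (log2 difference -2.62 ± 0.58 SE, adjusted p = 0.0014, edgeR). Its H3K9me3 counts, 3 and 5 against 1, 6 and 3, overlapped.

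**Figure D3:**
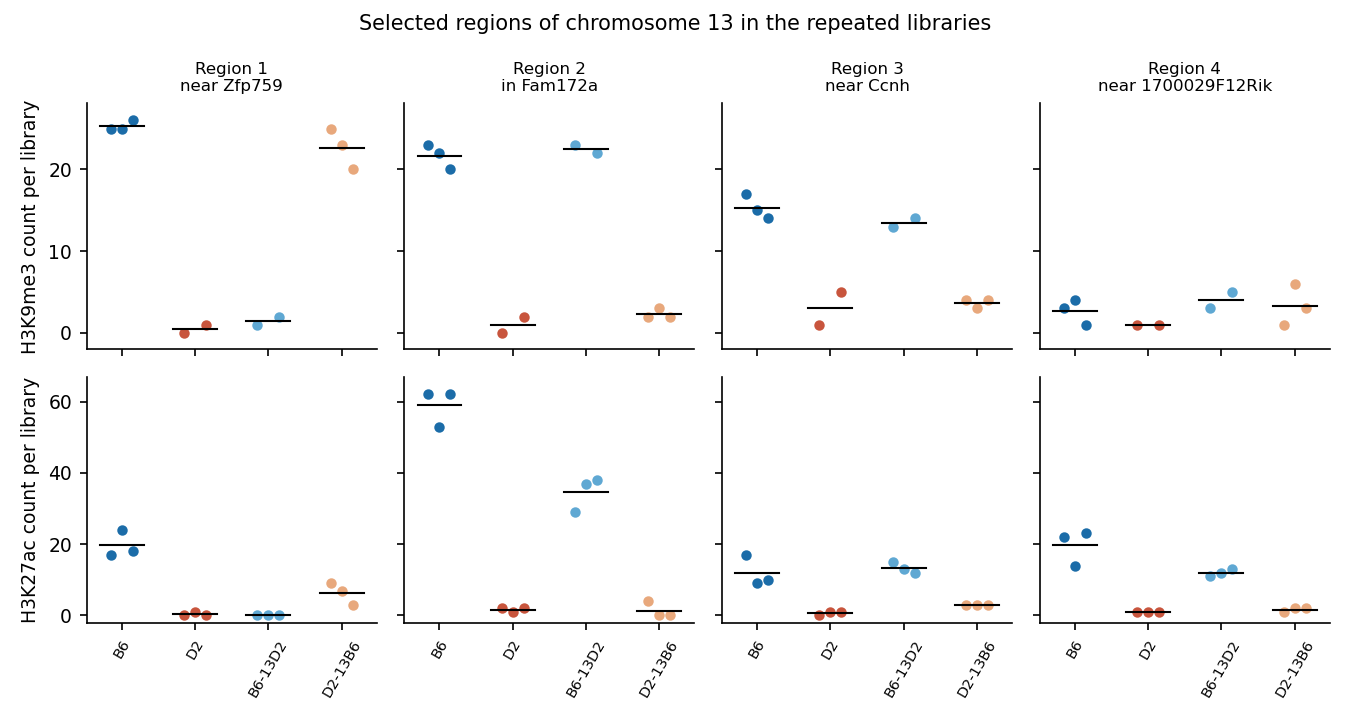
Read counts of the 4 selected regions of chromosome 13 in every repeated library, H3K9me3 above and H3K27ac below, by genotype. Points are libraries and bars are means. In the region near Zfp759 (left) D2-13B6 is high (25, 23 and 20 H3K9me3 reads) and B6-13D2 low (1 and 2), and in the region in Fam172a the order is the reverse.

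A further region outside chromosome 13 had more reads in D2-13B6 and was named after its values were seen. It is chr10:116794510-116794748, in an intron of Myrfl, with 70 reads in B6 5-1, 8 in D2 5-5, 10 in B6-13D2 and 40 in D2-13B6. Its H3K27ac counts were 3 in each library of B6-13D2 and 18, 6 and 10 in D2-13B6, where replicate 1 is the library that stood apart (log2 difference 2.10 ± 0.54 SE, adjusted p = 0.00505, edgeR). Without that replicate the adjusted p was 0.054. The overlapping region of the separate list, which is wider, had 165, 127 and 151 reads in the B6 lines and 66, 79 and 63 in the D2 lines, so H3K27ac reads were present in every D2 line.

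The largest cluster lay in the Skint gene family on chromosome 4. By name or nearest gene, 21 of the 168 regions (12.5%) belonged to this family, against 0.0328% of all autosomal regions, and they spread over 1907 kb, chr4:112057789-113964307. Of the 54 regions of the list in that stretch, 45 had 8 reads or fewer in D2 5-5, and 24 of those were left out of the choice because B6 5-1 had at most 58 reads there. The median count of the 54 regions was 63 in B6 5-1, 5 in D2 5-5, 47 in B6-13D2 and 4.5 in D2-13B6. In the 20 nearest regions outside the stretch, the medians were 38.5, 15, 38 and 16. Reads were not missing from the whole stretch in D2 5-5: 9 regions had more than 8, and 1 had 81.

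The 21 Skint regions ran from 61 to 738 reads in B6 5-1, from 30 to 907 in B6-13D2 and from 1 to 15 in D2-13B6, and B6-13D2 was higher at each. H3K9me3 was lower in D2-13B6 at all 21 and H3K27ac at 19 in edgeR's test between the congenic lines, against 3.94% and 9.33% of all tested regions. In the test of the separate lines H3K9me3 was lower in D2 at 13, against 1.51%, in a fit that called 0 of the 168 regions with library totals. In those lines the median H3K9me3 count of the 21 was 24, 21 and 22 in B6 and 3, 4 and 4 in D2. Of the 21, 13 lay in introns, 7 were intergenic and 1 lay on a pseudogene exon within Skint6. At chr4:112159399-112161519 in Skint4, H3K9me3 was 91 and 74 reads in B6-13D2 and 0, 3 and 5 in D2-13B6 (log2 difference -4.92 ± 0.42 SE, adjusted p = 7.4e-19, edgeR). H3K27ac there was 243, 229 and 239 reads in B6-13D2 and 1, 1 and 0 in D2-13B6. The separate H3K9me3 libraries had 158, 104 and 125 reads in the B6 lines and 2, 7 and 3 in the D2 lines. At chr4:112156019-112157050, where 16.7% of bases are soft-masked and 0% of 50-mers are repeated, they had 54, 42 and 41 reads in B6 and 1 in each D2 line. The 3 D2 lines were low at both, and the B6 lines did not overlap with them. Other Skint regions differed less in this mark: chr4:113457765-113458422, nearest to Skint5, had 24, 20 and 23 reads in B6 and 24, 24 and 20 in D2, which overlap. The region chr4:112057789-112058189 had 16, 15 and 16 in B6 and 12, 10 and 7 in D2. At chr4:112378697-112379342, 6.63 kb from Skint9, the separate H3K9me3 counts were 47, 44 and 38 in B6 and 3, 0 and 2 in D2.

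**Figure D4:**
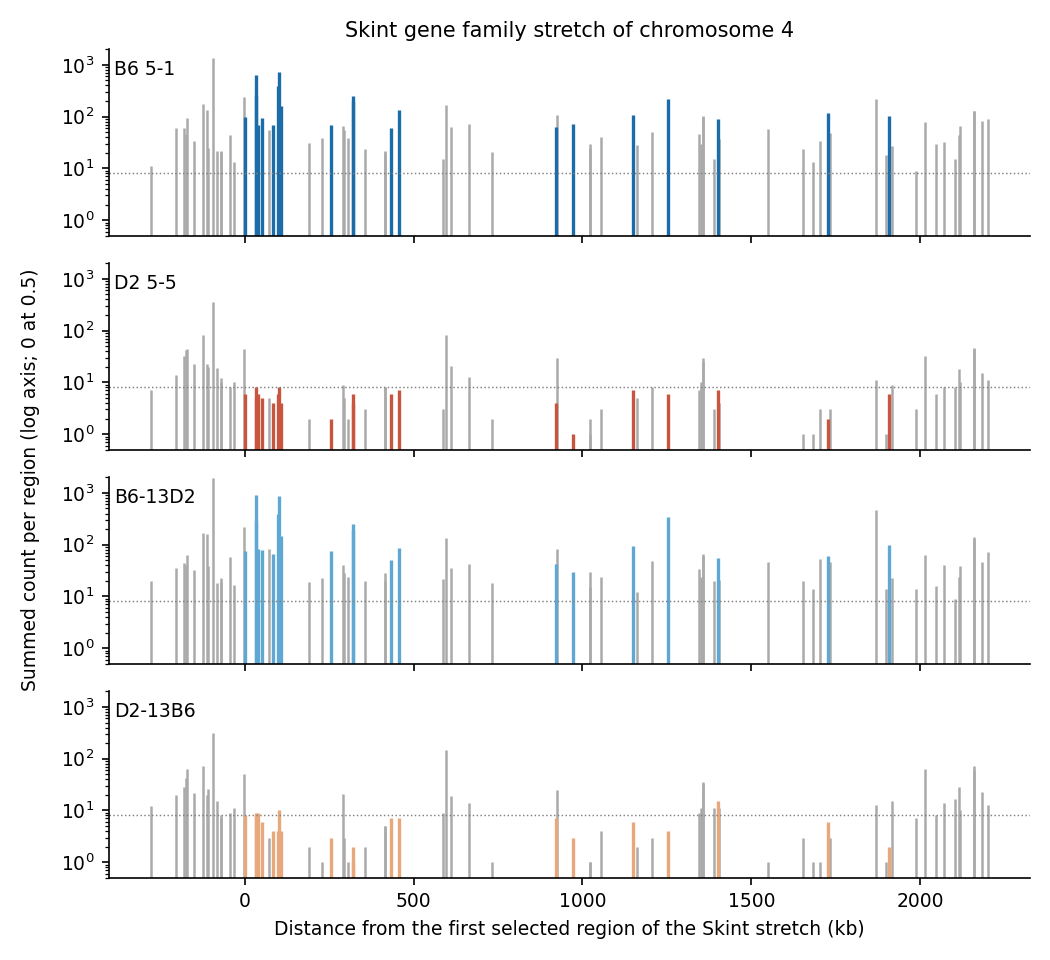
Summed read count (log axis, 0 drawn at 0.5) of every listed region in and around the Skint stretch of chromosome 4, by distance from its first selected region in kb, with 1 panel per genotype. Coloured lines are the 21 selected regions, grey lines the other regions, and the dotted line is the limit of 8. B6 5-1 and B6-13D2 share one pattern of heights, and D2 5-5 and D2-13B6 are low over most of the 1907 kb.

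Most of the regions were not neighbours in the list, of which 0.0697% was selected. How many would be neighbours at that share was not computed. Runs of at least 2 selected regions in adjacent rows, no more than 50 kb apart, numbered 9 and held 23 regions, and 145 regions stood alone. The longest was chr4:112057789-112109750 in and beside Skint4, 5 regions over 52.0 kb, with 1155 reads in B6 5-1, 30 in D2 5-5, 1428 in B6-13D2 and 40 in D2-13B6. The next, chr4:112140629-112165130 in Skint4, held 4 regions with 1347, 22, 1481 and 22 reads. With regions of 8 or fewer D2 reads allowed inside a run, these 2 became one of 107 kb with 9 selected regions of 10. The other 7 runs held 2 regions each: chr2:100115910-100144952, chr11:71293006-71321322, chr4:112491537-112515009, chr14:43953589-43967812 near Ang5, an angiogenin family gene, chr6:134389433-134391241 near Bcl2l14, chr4:112378697-112379903 near Skint9 and chr3:48434082-48434941. B6-13D2 had 96 to 586 reads in these 7 runs and D2-13B6 3 to 21.

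Among the 145 regions that stood alone, 93 had more than 8 D2 5-5 reads in the next regions on both sides. Of all autosomal regions 2.79% had 8 or fewer, and the share with such neighbours on both sides was not computed for them. The median gap from a selected region to an adjacent row that was not selected was 11206 bp, taken over the 168 regions. The median log2 ratio of D2-13B6 to B6-13D2 counts was -2.87 at the selected regions (n = 168) and 0.13 over all autosomal regions. At the adjacent rows it was -0.65 (n = 146) and -0.60 (n = 145). Rows with fewer than 20 reads in the congenic lines together were left out, as were adjacent rows that were themselves selected. Leaving out selected neighbours bears on the difference, so no local edge is read from it.

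The remaining regions were spread over the autosomes. Chromosome 4 held 28 (16.7%, against 6.43% of all regions), 7 of them outside the Skint stretch, and chromosome 14 held 19 (11.3% against 4.31%). Chromosomes 18 and 19 held 0, against 3.40% and 2.59% of all regions. Other gene families were counted by overlap or by the nearest protein-coding gene. Defensins, antimicrobial peptide genes, had 2 regions (1.19% against 0.0639% of all regions), and Nlrp1b or Nlrp1c-ps had 3, in a list of Nlrp, schlafen and interferon-induced GTPase genes (1.79% against 0.145%). Zinc finger genes had 3 (1.79% against 1.90%), olfactory receptors 2 (1.19% against 0.662%), vomeronasal receptors 1 (0.595% against 0.368%) and cytochromes P450 1 (0.595% against 0.181%). By this count natural killer receptor, T-cell receptor variable, immunoglobulin variable, major histocompatibility, Obox, protocadherin and major urinary protein genes had 0, but each of these lists held at most 0.0656% of all regions. By position, which was added after the values were seen, 3 regions lay between the first and the last variable gene of the immunoglobulin heavy chain locus, which held 0.0784% of all regions: chr12:113871717-113872966, chr12:114378506-114379601 and chr12:114961944-114962538. They had 109, 71 and 102 reads in B6 5-1, 96, 54 and 102 in B6-13D2 and 4, 7 and 11 in D2-13B6. The last of them is also counted above as a zinc finger region, since Zfp386 is its nearest protein-coding gene. A further region, chr14:53936706-53937112, lay among the variable genes of the T-cell receptor alpha locus, which held 0.0490% of all regions, with 152 reads in B6 5-1, 107 in B6-13D2 and 17 in D2-13B6. The variable loci of the immunoglobulin kappa and lambda chains and of the T-cell receptor beta chain, with 156, 6 and 38 listed regions, had 0.

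The lines B6 4-1, B6 4-4, D2 2-9 and D2 203 were also not used in the choice. Both B6 lines had more H3K9me3, in CPM, than both D2 lines at 139 of the 168 regions (82.7%), against 16.6% of all autosomal regions. The summed H3K9me3 count had a median of 28.5 reads in the 2 B6 lines and of 8 in the 2 D2 lines. The D2 lines had at least as many reads as the B6 lines at 23 of the 168, which was so at 74.7% of all regions. In edgeR's test 79 of the 168 were lower in D2 and 1 higher, while 1.51% of all tested regions were lower, and the median log2 difference was -2.01. These calls rest on the estimated spread: edgeR's prior degrees of freedom were infinite here, and with library totals in place of TMM scaling they were 4.64 and 0 regions passed (110 were lower at an unadjusted p under 0.05). DESeq2's Wald test gave 37 among the 98 regions for which it gave an adjusted p, and leaving out D2 2-9 gave 47.

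The antibody against H3K27ac differed between the sets, from Abcam for the separate lines and from Cell Signaling for the repeated libraries. For H3K27ac of the separate lines, 60 of the 168 regions overlapped a region of the separate list, which 41.0% of all autosomal regions did. The 60 met 59 distinct regions of that list, so 1 of them is counted 2 times. Both B6 lines lay above both D2 lines at 57 of the 60, against 35.5% of that list. A region with few D2 reads would overlap that list mostly through reads of the B6 lines. The counts at the 60, here and in the test that follows, are thus in part set by the overlap. In edgeR's test 57 were lower in D2 and 1 higher, while 19.2% of all regions were lower, and the median log2 difference was -3.34. The summed count of D2 2-9 and D2 203 had a median of 10.5 reads, against 144 in the B6 lines, and 24 of the 60 had 6 reads or fewer, against 0.251% of the list. The region that was higher, at chr4:112057789, overlaps the wider region chr4:112056569-112057880 by 92 bp, which had 63 and 62 reads in these D2 lines and 39 and 37 in the B6 lines. At chr4:52542805-52543994 the same mark gave 145 and 103 reads in B6 4-1 and B6 4-4 and 0 and 0 in D2 2-9 and D2 203. At chr7:113650385-113651335, a region almost without H3K9me3 (2 and 2 reads in those B6 lines), it gave 140 and 121 against 12 and 18 (log2 difference -3.09 ± 0.25 SE, adjusted p = 2.2e-23, edgeR).

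**Figure D5:**
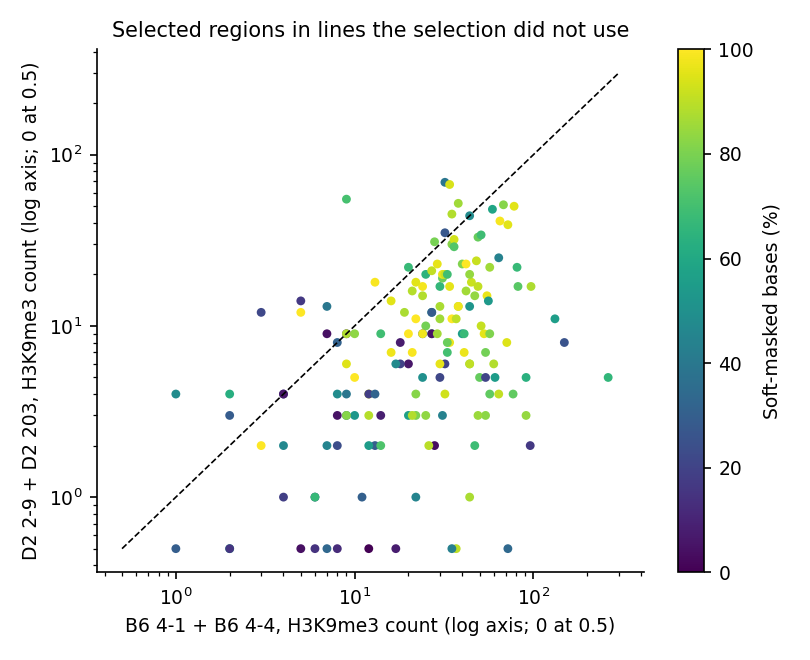
Summed H3K9me3 count of each selected region in D2 2-9 and D2 203 (vertical, log axis) against B6 4-1 and B6 4-4 (horizontal, log axis), lines that the choice did not use, with 0 drawn at 0.5. Colour is the soft-masked share of the region in percent and the dashed line marks equal counts. D2 sums reach 69 reads, and 23 of the 168 regions lie on or above the line.

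Reads were not absent from the regions in every D2 library. The separate H3K9me3 library of D2 5-5 itself had 3 reads or fewer at 60 of the 168 regions (35.7%), against 32.6% of all autosomal regions. It had 10 or more at 44 (26.2%), against 28.2%, so both shares were near those of all regions. Its median at the regions was 2.00 CPM, the same as over all regions (2.00), while the repeated H3K9me3 libraries of the same line had 0.88 and 2.64 CPM. In B6 5-1 the medians at the regions were 8.49 CPM in the separate library and 7.91 in the repeated ones. The values of the repeated libraries were set by the choice, so no comparison of the sets is drawn from them. For H3K27ac of the separate set, D2 5-5 had a median of 5.5 reads at the 60 overlapped regions against 73 over that list.

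The same counts were split by repeat content. Where under 50% of bases were soft-masked (54 regions), the separate D2 5-5 library had a median of 2 reads, and 34 regions had 3 or fewer. At 50 to 90% (73 regions) the median was 7, with 19 regions at 3 or fewer, and at 90% or more (41 regions) it was 7, with 7 regions at 3 or fewer. B6 5-1 had medians of 8, 18 and 16 reads in its separate library at the same regions. Over all autosomal regions the separate libraries had medians of 3 reads in B6 5-1 and 5 in D2 5-5. In the repeated libraries the summed H3K9me3 count of B6 5-1 had medians of 19, 52 and 54, against 14 over all autosomal regions. The regions with fewer repeats thus had less H3K9me3 in B6 5-1 than the other selected regions. Reads from repeats can come from other copies, and their part in the counts was not tested.

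The highest D2 counts show the range. At chr11:14080184-14081655 in 4930554G24Rik, the separate H3K9me3 libraries had 34, 45 and 35 reads in the D2 lines and 9, 23 and 23 in the B6 lines (log2 difference without B6 5-1 and D2 5-5 0.64 ± 0.43 SE, adjusted p = 0.66, edgeR). H3K27ac in the wider overlapping region was 24, 38 and 34 in D2 against 550, 403 and 379 in B6. H3K9me3 reads were thus present in every D2 line there, while H3K27ac reads were far fewer than in B6. At chr14:17034852-17035338 near Rarb, which encodes a retinoic acid receptor, H3K9me3 was 36, 49 and 31 in D2 and 18, 16 and 17 in B6, a difference that did not pass the test (log2 0.48 ± 0.43 SE, adjusted p = 0.79, edgeR), and the repeated libraries had 3 and 1 in D2 5-5 and 16, 24 and 19 in B6 5-1. At chr11:42679511-42680420, 50.5 kb from Gabrb2, a GABA receptor subunit gene, it was 27, 24 and 28 in D2 and 3, 6 and 8 in B6, the 1 region called higher in D2 (log2 difference 2.11 ± 0.54 SE, adjusted p = 0.0063, edgeR). That call was lost with library totals (adjusted p = 0.12), with DESeq2 (0.12) and without B6 4-1 (0.20), B6 4-4 (0.052) or D2 203 (0.068). The last 2 were named after their values were seen.

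At 28 regions the counts were at or under limits chosen after the values were seen: 8 reads or fewer in D2-13B6 and 3 or fewer in each of the 3 separate D2 libraries of H3K9me3. Of all autosomal regions, 0.534% met the same limits, and among those with 60 or more B6 5-1 reads 36 did. The separate B6 lines had medians of 5.5, 9 and 9 H3K9me3 reads at the 28, at least 1 B6 line had 3 or fewer at 11 of them and every B6 line at 1, so the limit on the D2 lines separates the strains weakly there. The 28 lay on 11 chromosomes, with 10 on chromosome 4, 7 of these in the Skint family. Their median soft-masked share was 33.9%, against 80.4% for the other 140, and their median B6 5-1 sum was 78.5, against 81.5. The region near Nlrp1b, chr11:71293006-71294345, is the highest of them, with 12, 10 and 9 H3K9me3 reads in the separate B6 lines and 0, 3 and 1 in the D2 lines. Its H3K27ac counts were 263, 150 and 174 in B6 and 1, 1 and 2 in D2, with no overlap. The region in Tasp1, a protease gene, chr2:140036763-140037980, had 5, 8 and 9 H3K9me3 reads in B6 and 1, 0 and 1 in D2, yet H3K27ac in the wider overlapping region was 13, 18 and 13 in D2 against 231, 166 and 173 in B6 (log2 difference without B6 5-1 and D2 5-5 -3.89 ± 0.24 SE, adjusted p = 5.3e-35, edgeR).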

How the data were processed

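The study deposited read counts per region in 34 libraries, and raw counts as deposited were the unit used. Per the submitters' processing notes, reads were handled with Trimmomatic 0.39, HISAT2 2.2.1, MACS 1.4.2, bedtools 2.9.2 and edgeR on mm10, and per the labels' protocols chromatin was digested with MNase and read over 75 bp. The order and settings of these steps are not given in the sources used here. A shared list of regions holds H3K9me3 of all libraries and H3K27ac of the repeated libraries, and a separate list holds H3K27ac of the separate lines, so no level was compared across the lists. In the shared list, 2 count columns that match no sample here were not used. Starts were read as counted from 0, and 1 was added.

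The regions, families and lists were chosen with earlier results of these data known. Named were the runs with the most regions or the longest span, the 5 regions with the highest B6 5-1 sum and the 5 with the highest H3K9me3 sum, those on a coding exon or within 1 kb of a start, those on chromosome 13, those against their background, and the 3 on either side of each limit. Others are said to have been named after their values were seen.

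Tests were edgeR 4.0.16 quasi-likelihood tests with TMM scaling on all regions of a list (R 4.3.3), adjusted by Benjamini-Hochberg, threshold 0.05. They compared D2-13B6 with B6-13D2 in the repeated libraries, and D2 2-9 and D2 203 with B6 4-1 and B6 4-4. The repeated libraries came from 1 line per genotype, so their p-values measure only the spread between libraries. A named region with 3 counts or fewer in all in a group got no fold, except among the log2 differences listed as having turned. The tests were tested on simulated data, where the one for H3K9me3 of the separate lines called none of the changed regions unless regions with low counts were filtered out. In addition, DESeq2 1.42.0, library totals, filters and left-out libraries were tried as alternatives. Some fits with libraries left out kept 1 sample in a group, and the spread then came from the other group alone. This was so for the fits without 1 of the 4 separate lines and for those without a B6-13D2 library. For H3K27ac it was also so for those without a D2-13B6 library. Regions were joined to the separate list by an overlap of at least 1 bp (bedtools 2.31.1) and annotated with GENCODE M21 on GRCm38.p6. Some named regions are not reported here.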

Additional observations from a re-analysis of the deposited data

Results flagged for a closer look

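At chr13:67154977-67155434, near Zfp759, D2-13B6 had 68 H3K9me3 reads and 19 H3K27ac reads over its libraries, against 3 and 0 in B6-13D2. In each mark every D2-13B6 library was above every B6-13D2 library, while every D2 5-5 library was below every B6 5-1 library. The order of the congenic lines was thus the reverse of that of the parental lines with the same backgrounds. The congenic lines differ in background and in a segment of chromosome 13, and whether the region lies in that segment was not checked. The parts of background and segment in these counts were not tested, and the parental counts chose the region.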

How the results depend on the processing

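The number of regions followed the limits by construction: 1, 31 and 637 with a D2 5-5 limit of 0, 3 and 15 reads, 356 and 57 with a B6 5-1 limit of 40 and 100, and 256 to 347 without 1 library of D2 5-5. With gaps of at most 10 kb there were 5 runs. D2-13B6 was at or under limits of 3 and 15 reads at 16 and 140 regions, and at 120 to 126 without 1 replicate. B6-13D2 reached a limit of 100 at 45 regions, and the limit of 60 at 46 to 76 without 1 replicate. Of the tests, H3K9me3 of the separate lines was lower in D2 at 0 regions with library totals (110 at an unadjusted p under 0.05), 37 with DESeq2 (of 98 with an adjusted p) and 47 to 65 without 1 line. Between the congenic lines, DESeq2 gave 55 for H3K9me3 (of 58 with an adjusted p) and 62 for H3K27ac (of 66), and leaving out libraries gave 90 to 116 and 100 to 126. For H3K27ac of the separate lines leaving out a line gave 55 to 57. The cause of the differences between tools and scalings was not tested. Same-numbered samples did not deviate together, so the numbers do not pair them, and with the replicate block the counts were 97 and 58 for H3K9me3 and H3K27ac of all 6 separate lines and 107 and 120 between the congenic lines. Over all regions, counts lower in D2 or D2-13B6 ranged over the alternatives from 3 to 6924 and from 2819 to 13261 for H3K9me3 of the separate and congenic lines, and from 8668 to 24273 and from 10333 to 29758 for H3K27ac. For the named regions, 684 values kept their direction and side of the threshold, 50 lost the call, 3 gained it and 7 turned. Those that turned were not called, and are given as log2 differences over the fits without 1 replicate: -2.49 to 3.93 for H3K9me3 of the separate lines in Myrfl, -0.62 to 1.54 for congenic H3K9me3 in Nrcam (and -0.29 with the replicate block), -0.93 to 0.067 for congenic H3K9me3 at chr13:96993228-96993711, and -1.07 to 0.20 for congenic H3K27ac near Rarb (0.16 without D2-13B6 replicate 1). In Myrfl, B6 4-1 and B6 4-4 held 0 and 1 H3K9me3 reads, under the floor of 3 counts. In Nrcam, the B6-13D2 libraries held 1 and 5, so a fit without replicate 2 is also under that floor. At chr13:96993228-96993711 they held 3 and 5, so a fit without replicate 2 is at it. These ranges show the turn only, and no size or direction is read from them. Most D2 counts were under 9 reads per region, so differences among the low counts were not detectable at this depth.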
